A study of Homo sapiens with 9 samples.

Results

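The glycolysis and hypoxia response genes examined here are 35 genes listed by name for glucose transport, the steps of glycolysis, lactate handling and the response to low oxygen. They were listed with earlier results of these data known and were taken from the counts table by symbol, and 33 of the 35 were present among its 16612 genes. All 33 passed the filter on low counts, as did 16312 genes in all. HK1 and PFKFB2 were not analysed here.

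RNA was sequenced from HNT34, a human acute myeloid leukemia (AML) cell line that carries the t(3;3) rearrangement and expresses EVI1 at a high level. EVI1 is a zinc finger transcription factor encoded by MECOM. Cells received a non-targeting shRNA (NT) or 1 of 2 EVI1-directed shRNAs, sh#16 or sh#87, each carried by the lentiviral vector pZIP-hEF1a-RFP-Puro, and were collected 3 days after selection. Each group had 3 libraries, all from this single cell line. No source used here says whether the libraries of a group came from separate cultures, so p-values measure the spread between these libraries, which may be technical. An untransduced group was not analysed here. The question put to the genes is how their RNA differed when EVI1 was knocked down.

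Glycolysis splits glucose into pyruvate. Glucose enters through transporters of the SLC2A family, is trapped by hexokinase and is committed by phosphofructokinase, and the later enzymes yield ATP and pyruvate. Lactate dehydrogenase turns pyruvate into lactate, which leaves through SLC16A transporters, whereas pyruvate dehydrogenase sends it into mitochondria unless pyruvate dehydrogenase kinases block it. HIF1A is the oxygen-regulated subunit of the HIF transcription factor. In oxygen the prolyl hydroxylases EGLN1 and EGLN3 mark it for destruction, and at low oxygen it raises many of these genes. Most of that control acts on the HIF1A protein, which RNA counts do not show. AML cells and blood progenitors are known for a high use of glycolysis.

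The authors deposited estimated counts per gene. Levels are given here as CPM, the usual depth-scaled counts with library sizes adjusted by TMM, and are listed in the order of replicates 1, 2 and 3. A gene was called changed at an adjusted p of at most 0.01 in edgeR's quasi-likelihood test. A value against NT without further words is a log2 fold change with its standard error (SE) for both shRNAs as 1 group, and a negative value means a lower level in knockdown. In that fit a difference between the 2 shRNAs adds to the spread. CPM can be compared for 1 gene across libraries. Only CPM per kilobase of transcript can be compared between genes.

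Depth ranged from 17096170 to 43502389 counts per library. The NT libraries stood apart from one another. Mitochondrially encoded genes took 15.9%, 11.5% and 4.69% of the counts of NT replicates 1, 2 and 3, against 2.69% to 2.88% in sh#16 and 4.62% to 5.97% in sh#87 libraries. The biological coefficient of variation over all genes tested was 25.0% in NT, 3.77% in sh#16 and 6.96% in sh#87. MECOM stood at 571, 504 and 440 CPM in NT, at 145, 143 and 145 CPM in sh#16 and at 109, 107 and 106 CPM in sh#87, and its log2 CPM was lower in knockdown in an exact two-sided permutation test over libraries (p = 0.0119, 84 permutations, the smallest p this design allows). Of 8 genes listed as myeloid progenitor markers, 6 were in the table, with CD34, KIT and PTPRC among them. Their summed level was 2005 to 2121 CPM in NT, 629 to 637 CPM in sh#16 and 352 to 357 CPM in sh#87. Of these 6 genes 4 fell (CD34, KIT, PTPRC and SPI1), with each shRNA and with both as 1 group. The other 2, CD33 and ANPEP, were called lower with sh#87 and not with sh#16 or with both as 1 group. Among 7 monocyte and granulocyte markers in the table ITGAM and LYZ rose and CSF1R and CTSG fell, and the 12 erythroid markers listed were not analysed here. These markers moved with the same groups as every result below, and their part in those results was not tested. In such bulk RNA, fewer cells of a type and less RNA per cell cannot be told apart.

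The genes did not move as a block. With both shRNAs against NT, 8 of the 33 genes rose (24.2%; 30.1% of all genes tested) and 11 fell (33.3%; 29.7% of all genes tested). Both shares were near the background, so the number of changes is not a result about these genes. The list's median was 0.22 against 0.05 over all genes tested. The genes that rose were SLC2A3, ALDOC, TPI1, ENO2, PKM, PFKFB3, TIGAR and PDK3. Those that fell were HK2, PFKP, LDHA, LDHB, PDK1, HIF1A, EGLN1, EGLN3, VEGFA, BNIP3 and P4HA1. The remaining 14 did not pass the test.

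The 6 knockdown libraries all lay above the 3 NT libraries for 10 genes (33.9% of all genes tested) and all below them for 11 genes (32.1% of all genes tested), and the levels of the other 12 overlapped. Every one of the 11 genes called lower was free of overlap. The 10 genes above NT were the 8 called higher together with ALDOA and ADM.

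A change of at least 2-fold in 1 direction with each shRNA was reached by 3 genes that rose, ALDOC, ENO2 and PDK3 (16.7% of all genes tested rose by this rule), and by 3 that fell, HK2, LDHA and VEGFA (14.0% of all genes tested fell). At the study's threshold, a log2 fold change of 2 or more in size with both shRNAs as 1 group, ALDOC alone was called higher (9.74% of all genes tested) and no member was called lower (5.66% of all genes tested). The lowest log2 fold change of any member with both shRNAs was -1.50 in edgeR and -1.52 in DESeq2, so no member reached -2 at any p in either tool.

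The bases before the transcription start of these genes are shown because they hold the letters that HIF and MYC, both known activators of glycolytic genes, are known to read. HIF binds ACGTG or GCGTG, and MYC with its partner MAX binds CACGTG, which contains ACGTG on both strands. Promoter windows from RefSeq (GRCh38.p14) were found for 29 of the 33 genes, 50 windows in all. SLC2A3, SLC16A1, VEGFA and BNIP3L were not matched. In the 250 bases before the start, ACGTG on either strand was present in 44% of the 50 windows, against 22.1% of the 14998 windows of genes in the counts table and 18.5% of all 35116 windows. GCGTG was present in 34% against 43.1% and 32.2%, and CACGTG in 14% against 8.17% and 6.34%. The letters ACGTG were found for 6 of the 7 matched genes that rose, for 7 of the 10 that fell and for 6 of the 12 that were not called. Over all matched genes of the counts table they were found for 2972 of 10462. The list was made by pathway and by response to low oxygen, not by known binding of these factors. Its higher share describes the listed genes and uses no level measured here, and its cause was not tested. Windows of 1 gene can overlap, and a match is a description of the letters, not a site of binding.

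The windows of the 5 matched genes with a change of at least 2-fold with each shRNA are printed from 5′ to 3′ on the strand of the gene, ending at the base before the start. Capitals mark ACGTG on either strand. HK2 and LDHA have 2 windows each, and the one with more matches is shown. The coordinates are chr2:74834920-74835169 (plus strand) for HK2, chr11:18394313-18394562 (plus) for LDHA, chr17:28576896-28577145 (minus) for ALDOC, chr12:6914330-6914579 (plus) for ENO2 and chrX:24465036-24465285 (plus) for PDK3.
HK2: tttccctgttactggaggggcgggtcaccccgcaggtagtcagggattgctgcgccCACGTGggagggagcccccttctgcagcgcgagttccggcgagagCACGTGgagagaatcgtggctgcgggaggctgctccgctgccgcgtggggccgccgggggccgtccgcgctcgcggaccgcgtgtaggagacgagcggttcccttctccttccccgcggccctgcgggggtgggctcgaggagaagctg
LDHA: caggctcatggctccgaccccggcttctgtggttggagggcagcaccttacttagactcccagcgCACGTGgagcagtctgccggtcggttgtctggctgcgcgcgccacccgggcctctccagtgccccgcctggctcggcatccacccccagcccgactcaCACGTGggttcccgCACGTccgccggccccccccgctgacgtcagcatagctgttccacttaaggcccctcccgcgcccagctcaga
ALDOC: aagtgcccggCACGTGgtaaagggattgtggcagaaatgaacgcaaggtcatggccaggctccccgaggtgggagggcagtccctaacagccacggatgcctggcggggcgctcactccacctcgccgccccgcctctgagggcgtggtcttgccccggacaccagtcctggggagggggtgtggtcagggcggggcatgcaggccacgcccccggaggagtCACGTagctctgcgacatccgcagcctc
ENO2: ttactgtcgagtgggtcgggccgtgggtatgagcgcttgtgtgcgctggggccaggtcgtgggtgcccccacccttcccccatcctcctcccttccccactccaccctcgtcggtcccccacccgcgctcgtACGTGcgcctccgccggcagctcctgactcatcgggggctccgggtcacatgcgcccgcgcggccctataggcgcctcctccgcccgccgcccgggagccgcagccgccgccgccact
PDK3: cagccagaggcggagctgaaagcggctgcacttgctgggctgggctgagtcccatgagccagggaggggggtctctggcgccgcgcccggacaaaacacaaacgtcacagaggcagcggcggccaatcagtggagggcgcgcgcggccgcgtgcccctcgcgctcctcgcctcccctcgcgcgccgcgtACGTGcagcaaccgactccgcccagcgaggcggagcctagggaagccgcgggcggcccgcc
In the windows shown, HK2 and LDHA, which fell, each held CACGTG 2 times. The 2 copies in HK2 began 194 and 149 bases before the start, and those in LDHA began 185 and 87 bases before it. The window of LDHA that is not shown held no ACGTG, and that of HK2 held it. ALDOC, which rose, held CACGTG 1 time, 240 bases before its start. ENO2 and PDK3, which also rose, held ACGTG without the full CACGTG, at 118 and 61 bases before their starts. The letters were thus present in genes that moved either way.

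Glucose uptake opened the pathway with 1 change. SLC2A3 encodes GLUT3, a transporter with a high affinity for glucose. Its level was 122 to 136 CPM in NT and 198 to 209 CPM in the 6 knockdown libraries, without overlap, and it rose by 0.69 (SE 0.0731, adjusted p = 1.61e-05). SLC2A1, which encodes the widely expressed transporter GLUT1, was at 24.2, 33.2 and 47.7 CPM in NT, at 33.8 to 34.8 CPM in sh#16 and at 24.5 to 27.9 CPM in sh#87. Its value of -0.21 (SE 0.199, adjusted p = 0.361) did not pass the test. NT replicate 1 was near the sh#87 libraries and NT replicate 3 was above all others. Per length, SLC2A3 made up 76.6% ± 5.07 (SD, n = 3) of the counts of both transporters in NT, 84.1% ± 0.276 in sh#16 and 87.2% ± 0.497 in sh#87.

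Of the hexokinases HK2 was in the table, and its RNA fell. HK2 encodes hexokinase 2, which binds mitochondria and traps glucose as glucose 6-phosphate. HK2 was at 182, 198 and 210 CPM in NT, at 91.4, 90.6 and 93.6 CPM in sh#16 and at 71.2, 74.4 and 69.6 CPM in sh#87. The 3 groups did not overlap, with NT the highest and sh#87 the lowest. HK2 fell by 1.27 on the log2 scale (SE 0.116, adjusted p = 5.82e-06). GPI, which turns glucose 6-phosphate into fructose 6-phosphate, was at 111 to 174 CPM in NT, 109 to 113 CPM in sh#16 and 89.2 to 93.9 CPM in sh#87. It was called lower with sh#87 (-0.61, SE 0.138, adjusted p = 0.00291) and not with sh#16 (-0.33, adjusted p = 0.0567). The sh#87 call was lost without sh#87 replicate 1 or 2 and with only the libraries compared (adjusted p up to 0.0136). In other alternatives GPI was called with both shRNAs as 1 group, as in DESeq2 (-0.47, adjusted p = 0.00296). Without NT replicate 1 it was called with sh#16 too (-0.48, adjusted p = 0.00188).

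Of the isoforms of phosphofructokinase, the enzyme that commits sugar to glycolysis, 1 fell. PFKP, the platelet-type isoform, was at 126, 144 and 165 CPM in NT, at 85.1, 85.9 and 85 CPM in sh#16 and at 56.7, 54.7 and 56.8 CPM in sh#87. All 3 groups were separate, and PFKP fell by 1.04 (SE 0.179, adjusted p = 0.000426). PFKL, the liver-type isoform, was at 64.6, 91.1 and 140 CPM in NT, at 134 to 140 CPM in sh#16 and at 148 to 167 CPM in sh#87. PFKL was called in neither comparison (both shRNAs 0.59, SE 0.2, adjusted p = 0.021), and NT replicate 3 was at the level of sh#16. PFKM, the muscle-type isoform, was at 2.38 to 3.2 CPM in NT and 2.33 to 4.02 CPM in knockdown and did not pass the test either.

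In counts per length, PFKP made up 62.3% ± 5.69 (SD, n = 3) of the 3 isoforms in NT, 40.3% ± 0.579 in sh#16 and 27.6% ± 1.5 in sh#87. PFKL made up 36.7% ± 5.81, 58.7% ± 0.489 and 70.9% ± 1.73. The PFKP share was 67.5%, 63.1% and 56.2% in the NT libraries and at most 41.0% in any knockdown library. Shares are relative to the other isoforms and have no test here. They rest on the length of 1 transcript per gene.

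Of 3 regulators of fructose bisphosphate 2 rose. PFKFB3 makes fructose 2,6-bisphosphate, the activator of phosphofructokinase, and TIGAR is a phosphatase that removes it. PFKFB3 was at 49.5 to 64.5 CPM in NT and 79.6 to 87.7 CPM in knockdown and rose by 0.60 (SE 0.0936, adjusted p = 0.000221). TIGAR was at 7.14 to 10.7 CPM in NT and 15.3 to 18.9 CPM in knockdown and rose by 0.90 (SE 0.144, adjusted p = 0.000253). Enzymes of opposed action thus both rose, and neither overlapped between groups. PFKFB4, an enzyme of the PFKFB3 family, was at 7.96 to 12.7 CPM in NT, 12.4 to 14.7 CPM in sh#16 and 15.9 to 16.3 CPM in sh#87. It was called with sh#87 (0.65, SE 0.155, adjusted p = 0.00377) and not with both shRNAs as 1 group (0.53, adjusted p = 0.0118). The sh#87 call was lost in 6 alternatives, among them leaving out NT replicate 2 or any 1 sh#87 library (adjusted p up to 0.0168). With each library corrected for length and GC content of genes the value of PFKFB3 was 0.32 and it was still called.

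Aldolase splits the 6-carbon sugar. ALDOC, the brain-type form, was a low gene with 2, 6 and 11 counts in the NT libraries and 17 to 46 counts in each knockdown library. Its level was 0.086, 0.26 and 0.367 CPM in NT, 1.28, 0.994 and 0.931 CPM in sh#16 and 1.79, 1.52 and 1.42 CPM in sh#87. The groups did not overlap, and ALDOC rose by 2.41 (SE 0.403, adjusted p = 0.00035), the largest rise of the 33 genes. Against NT replicate 3 alone the value was 1.84 (adjusted p = 0.0151), which is no longer called. ALDOA, the main form here, was at 473, 640 and 745 CPM in NT and 751 to 791 CPM in knockdown. Its value of 0.31 (SE 0.131, adjusted p = 0.0535) did not pass the test. ALDOC made up at most 0.237% of both forms per length in any library.

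Most enzymes from triose phosphate to enolase were not called, and their NT libraries were far apart. GAPDH, the triose phosphate dehydrogenase often used as a reference gene, was at 1080, 1720 and 2330 CPM in NT, at 2150, 2180 and 2160 CPM in sh#16 and at 2170, 2070 and 2100 CPM in sh#87. The knockdown libraries were within the range of NT, and the value of 0.32 (SE 0.197, adjusted p = 0.163) was not called. TPI1, which interconverts the triose phosphates, was at 126, 180 and 283 CPM in NT and 312 to 363 CPM in knockdown. TPI1 rose by 0.78 (SE 0.206, adjusted p = 0.00627). Against NT replicate 3 alone its value was 0.25 (adjusted p = 0.1), and leaving out NT replicate 1, NT replicate 2, any 1 sh#16 library or sh#87 replicate 1 also ended the call.

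PGK1 and PGAM1 act on the next steps, and ENO1 is the main enolase. PGK1 was at 238 to 350 CPM in NT, 395 to 399 CPM in sh#16 and 289 to 301 CPM in sh#87, and was called higher with sh#16 (0.50, SE 0.126, adjusted p = 0.00607) and not with sh#87. PGAM1 was at 119 to 173 CPM in NT, 205 to 213 CPM in sh#16 and 144 to 162 CPM in sh#87, and was also called higher with sh#16 (0.57, SE 0.126, adjusted p = 0.00274) and not with sh#87. Leaving out NT replicate 1, NT replicate 2 or any 1 knockdown library ended the call of PGK1 (adjusted p up to 0.0286), and leaving out NT replicate 2 or sh#16 replicate 3 ended that of PGAM1 (up to 0.0147). ENO1 was at 1070 to 1560 CPM in NT, 1550 to 1620 CPM in sh#16 and 1190 to 1210 CPM in sh#87 and was called in neither. The difference between the shRNAs did not pass the test for any of these 3 genes (adjusted p from 0.0231 to 0.0363). In DESeq2 all 3 were called lower with sh#87 (adjusted p = 0.00519 for PGK1, 0.00397 for PGAM1 and 0.00622 for ENO1). They were also called with only the libraries compared and without NT replicate 1 or 3.

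Those NT levels ran beside the mitochondrially encoded share. Of the 33 genes, 20 were lowest in NT replicate 1 (mitochondrially encoded share 15.9%) and highest in NT replicate 3 (4.69%), and 6 were in the opposite order, LDHA, PDK1, HIF1A, BNIP3L, P4HA1 and TIGAR. The ratio of the highest to the lowest library was at least 1.5 for 12 genes in NT, with values up to 2.51 for SLC16A3 and 4.27 for ALDOC, and for 0 genes in sh#16 and in sh#87. Its median was 1.43 in NT, 1.04 in sh#16 and 1.06 in sh#87. The shares of all genes tested with this order or this ratio are not given here, so these counts are not a result about these genes. Over all genes tested the biological coefficient of variation was also largest in NT, at 25.0% against 3.77% and 6.96%. The part of this spread in the results was not tested. Leaving out NT replicate 3 raised the genes called higher with both shRNAs from 8 to 14, GAPDH, ALDOA and PFKL among them. Over all genes tested the number higher was 4904 of 16312 before and 4793 of 16461 after.

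ENO2 and PKM rose in every knockdown library. ENO2, the neuronal-type enolase, was at 20.2, 24.8 and 32.6 CPM in NT, at 57.8, 59.7 and 58.2 CPM in sh#16 and at 64.7, 70.4 and 75.3 CPM in sh#87. It rose by 1.31 (SE 0.159, adjusted p = 3.84e-05), without overlap. ENO2 made up 1.53% ± 0.0837 (SD, n = 3) of enolase counts per length in NT, 2.79% ± 0.0447 in sh#16 and 4.34% ± 0.35 in sh#87, so ENO1 stayed the main form. PKM encodes pyruvate kinase, the last step to pyruvate, and its splice forms PKM1 and PKM2 were not separated in these counts. PKM was at 1210, 1220 and 1010 CPM in NT and 1840 to 2070 CPM in knockdown and rose by 0.78 (SE 0.108, adjusted p = 9.77e-05). With the length and GC correction its value was 0.44 (adjusted p = 0.0169), which is not called.

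Lactate dehydrogenase fell in both forms. LDHA, whose subunit favours the step from pyruvate to lactate, was at 726, 619 and 537 CPM in NT, at 268, 258 and 262 CPM in sh#16 and at 180, 178 and 186 CPM in sh#87. The 3 groups were separate, with NT the highest and sh#87 the lowest. LDHA fell by 1.50 (SE 0.167, adjusted p = 2.23e-05), the largest fall of the 33 genes. Against NT replicate 3 alone it fell by 1.27 (adjusted p = 0.00343). LDHB, whose subunit favours the reverse step, was at 465, 420 and 446 CPM in NT, at 318, 330 and 333 CPM in sh#16 and at 226, 211 and 198 CPM in sh#87. LDHB fell by 0.72 (SE 0.182, adjusted p = 0.0046) and leaving out any 1 NT library or sh#87 replicate 1 ended this call, although each shRNA alone was called. Without NT replicate 1 the calls of the single shRNAs held (-0.42, adjusted p = 0.000526 with sh#16, and -1.04, adjusted p = 1.04e-06 with sh#87).

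The share of LDHA in the pair was lower in every knockdown library. Per length it was 45.0% ± 3.38 (SD, n = 3) in NT, 31.8% ± 0.914 in sh#16 and 33.3% ± 1.91 in sh#87. Among the genes compared per length, LDHA was at 280 CPM per kilobase in NT, 117 in sh#16 and 80.9 in sh#87. GAPDH was the highest in each group, at 1331, 1682 and 1647 CPM per kilobase. PKM was at 497 CPM per kilobase in NT and at 831 and 871 in the knockdowns, against 719, 889 and 674 for ENO1.

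The lactate transporters were not called with both shRNAs. SLC16A1 encodes MCT1, which carries lactate and pyruvate, and it was at 123, 123 and 129 CPM in NT, at 176, 174 and 179 CPM in sh#16 and at 118, 116 and 108 CPM in sh#87. It rose with sh#16 (0.50, SE 0.0567, adjusted p = 4.83e-05), while sh#87 gave -0.13 (adjusted p = 0.0593). SLC16A3 encodes MCT4, the lactate exporter of glycolytic cells, and was at 15.7, 24.2 and 39.4 CPM in NT and 39.1 to 53.6 CPM in knockdown. Its value of 0.79 (SE 0.239, adjusted p = 0.0125) did not pass the threshold, and 1 sh#87 library lay below NT replicate 3. With the length and GC correction the value was -0.049 (adjusted p = 0.661), whereas 5 other alternatives called it higher.

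The pyruvate dehydrogenase kinases moved apart. PDK3 was at 53.4, 52.3 and 58.7 CPM in NT, at 125, 126 and 128 CPM in sh#16 and at 126, 133 and 132 CPM in sh#87. The groups sh#16 and sh#87 overlapped with each other and not with NT, and PDK3 rose by 1.23 (SE 0.0746, adjusted p = 3.95e-07). PDK1, a kinase of the same kind and a known HIF target, was at 65.5, 54 and 52 CPM in NT and 41.8 to 46.8 CPM in knockdown, and fell by 0.37 (SE 0.0927, adjusted p = 0.0046). Against NT replicate 3 alone it was not called (adjusted p = 0.0798), nor without NT replicate 1, NT replicate 2, sh#16 replicate 2 or sh#87 replicate 1 or 2. Per length PDK1 made up 11.5% ± 1.65 (SD, n = 3) of the pair in NT and 4.24% ± 0.218 and 3.96% ± 0.191 in sh#16 and sh#87, a share that depends on the long transcript used for PDK1 (14072 bases).

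HIF1A and the prolyl hydroxylases EGLN1 and EGLN3 fell, whereas EGLN2 and HIF1AN, hydroxylases of HIF given with the other core genes, rose. HIF1AN was called higher with each shRNA, and EGLN2 with sh#87 and not with sh#16. HIF1A was at 348, 297 and 219 CPM in NT, at 165, 161 and 157 CPM in sh#16 and at 167, 160 and 175 CPM in sh#87, without overlap. It fell by 0.81 (SE 0.122, adjusted p = 0.000175), and against NT replicate 3 alone by 0.41 (adjusted p = 0.00695). EGLN1, the main HIF prolyl hydroxylase, was at 51.5 to 61.6 CPM in NT and 35.6 to 37.8 CPM in knockdown and fell by 0.63 (SE 0.0808, adjusted p = 5.95e-05). EGLN3, a hydroxylase that HIF itself induces, was at 81.5 to 89.6 CPM in NT and 45.8 to 51.8 CPM in knockdown and fell by 0.81 (SE 0.074, adjusted p = 5.78e-06). All 3 genes of this group fell with each shRNA.

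Of the 5 HIF targets outside glycolysis, 3 fell and 2 did not pass the test. VEGFA, the growth factor for blood vessels, was at 70.1, 76.5 and 79.3 CPM in NT, at 22.8, 22.1 and 23.8 CPM in sh#16 and at 36.7, 36 and 32.9 CPM in sh#87. It fell by 1.37 (SE 0.177, adjusted p = 6.08e-05), and the sh#16 libraries were the lowest. P4HA1, a collagen prolyl hydroxylase, was at 97.6, 86.6 and 84.1 CPM in NT, at 47.8, 45 and 46.7 CPM in sh#16 and at 34.1, 34.3 and 34.1 CPM in sh#87. It fell by 1.15 (SE 0.137, adjusted p = 3.46e-05), with sh#87 the lowest. BNIP3, a receptor for the removal of mitochondria, was at 29.1 to 29.8 CPM in NT and 17.7 to 21 CPM in knockdown and fell by 0.62 (SE 0.0851, adjusted p = 8.95e-05). Its pseudogene BNIP3P41 had up to 18.3% as many counts as BNIP3, so some reads could have been split between them, and with those counts added BNIP3 fell by 0.71. With the length and GC correction BNIP3 fell by 0.39.

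BNIP3L and ADM were the exceptions. BNIP3L, a relative of BNIP3 with the same role, was at 134 to 197 CPM in NT and 135 to 164 CPM in knockdown, with a value of -0.15 (SE 0.123, adjusted p = 0.286). ADM, which encodes the vessel-widening peptide adrenomedullin, was at 17.3, 18.8 and 24.7 CPM in NT, at 24.8 to 25.9 CPM in sh#16 and at 32.8 to 37.9 CPM in sh#87. It rose with sh#87 (0.83, SE 0.13, adjusted p = 0.000295) and was not called with sh#16 (0.33, adjusted p = 0.0464) or with both as 1 group (0.60, adjusted p = 0.0134).

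Each shRNA was also set against NT alone. With sh#16, 11 genes rose (29.8% of all genes tested) and 10 fell (30.2% of all genes tested). With sh#87, 9 rose (34.3% of all genes tested) and 12 fell (33.6% of all genes tested). The comparisons share the NT libraries. The genes called in the same direction with each shRNA were 17, namely SLC2A3, ALDOC, ENO2, PKM, PFKFB3, PDK3 and TIGAR, which rose, and HK2, PFKP, LDHA, LDHB, HIF1A, EGLN1, EGLN3, VEGFA, BNIP3 and P4HA1, which fell. The 7 that rose were 21.2% of the 33 genes (26.7% of all genes tested) and the 10 that fell 30.3% (27.5% of all genes tested), shares near the background. No gene was called in opposite directions, and 8 were called with neither. TPI1, PGK1, PGAM1 and SLC16A1 were called with sh#16 and not with sh#87, and GPI, PFKFB4, PDK1 and ADM with sh#87 and not with sh#16. Of the 8, the calls of TPI1 (8 alternatives), PGK1 (9), PGAM1 (2), GPI (3), PFKFB4 (6) and PDK1 (6) were lost under alternatives. Of these 8 only SLC16A1 passed the direct test between the shRNAs that follows. In DESeq2 PGK1, PGAM1 and ADM passed it too.

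The shRNAs themselves were compared directly, sh#87 against sh#16, which does not rest on the level in NT. VEGFA alone was higher with sh#87 (8.29% of all genes tested were higher), by 0.62 (SE 0.0773, adjusted p = 0.000637). Lower with sh#87 were 6 genes (9.42% of all genes tested were lower). These were SLC16A1 (-0.63, adjusted p = 0.000167), LDHB (-0.63, adjusted p = 0.000401), PFKP (-0.61, adjusted p = 0.00162), LDHA (-0.53, adjusted p = 0.00425), P4HA1 (-0.44, adjusted p = 0.00213) and HK2 (-0.36, adjusted p = 0.00393). Except for SLC16A1, each of these 7 genes had fallen with both shRNAs, so the difference was one of size. MECOM was also lower with sh#87 than with sh#16 (-0.43, SE 0.0887, adjusted p = 0.00661). Leaving out any 1 knockdown library ended the calls of HK2 and LDHA (adjusted p up to 0.0228 and 0.022). The number of such calls depended on the libraries that set the spread. It was 3 without sh#87 replicate 2 and 12 without NT replicate 3, and 18 when only the 6 knockdown libraries entered the fit. Over all genes tested the calls moved the same way. They were 540 higher and 614 lower of 16513 without sh#87 replicate 2, and 2556 and 2770 of 16461 without NT replicate 3. With only the 6 knockdown libraries they were 3681 and 3853 of 15685, so these counts are not a result about these genes.

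MYC, a known activator of glycolytic genes that the study follows, was at 299, 366 and 444 CPM in NT, at 256, 267 and 256 CPM in sh#16 and at 111, 93.1 and 98.4 CPM in sh#87. It fell with sh#16 (-0.51, SE 0.131, adjusted p = 0.00665) and more with sh#87 (-1.87, SE 0.136, adjusted p = 1.86e-06). The difference between the shRNAs was -1.36 (SE 0.134, adjusted p = 0.000235), in the direction of the 6 genes above and against that of VEGFA. Its part in their levels was not tested.

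Genes around the pathway were taken from lists written with earlier results of these data known. Their shares are read against the 30.1% of genes that rose and the 29.7% that fell over all genes tested with both shRNAs. Of other glycolytic isozymes 3 were in the table and did not pass the test, BPGM (-0.56, adjusted p = 0.0158), ENO3 (0.20, adjusted p = 0.25) and ADPGK (0.15, adjusted p = 0.28). Of 11 genes of pyruvate entry into mitochondria 3 rose and 5 fell. MPC2, a subunit of the mitochondrial pyruvate carrier, rose by 1.43 (SE 0.125) from 15.2 to 21.4 CPM in NT to 45.1 to 50.9 CPM in knockdown. PDK2, a kinase of the same family as PDK1 and PDK3, rose by 1.03, whereas the enzyme's subunits DLD and DLAT fell by 0.62 and 0.60.

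Of 8 genes of the pentose phosphate pathway, which yields NADPH and ribose from sugar phosphate, 3 fell. The enzymes PGD and RPIA each fell by 1.10. H6PD, which acts in the endoplasmic reticulum, rose by 1.29.

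Of 10 genes of glycogen metabolism 1 rose and 4 fell. The phosphorylases PYGM and PYGL, which release glucose from glycogen, fell by 2.84 (SE 0.182) and 1.42 (SE 0.26). GBE1, the branching enzyme, fell by 1.83 and UGP2, which makes UDP-glucose, by 1.31. PYGL was at 246 to 258 CPM in NT, 121 to 126 CPM in sh#16 and 60.5 to 66.3 CPM in sh#87.

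Of 10 other core genes of the HIF pathway 5 rose and 1 fell. EPAS1, which encodes HIF2A, was at 1.12, 1.34 and 1.4 CPM in NT and 7.4 to 9.75 CPM in knockdown and rose by 2.73 (SE 0.174, adjusted p = 5.21e-07). HIF1AN, which inhibits HIF by hydroxylation, rose by 0.91, EGLN2 by 0.72 and ELOB, a subunit of the VHL complex, by 1.05. Of 21 other HIF targets 4 rose and 8 fell. BHLHE40, a transcription factor, fell by 2.03 and ERO1A, an oxidase of protein folding, by 1.27, while HMOX1, the heme oxygenase, rose by 1.58 and NDRG1 by 1.20.

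Of 9 genes of glucose sensing and transport 5 rose and 3 fell. SLC2A4, the insulin-regulated transporter GLUT4, was at 0.172, 0.347 and 0.4 CPM in NT and 8.49 to 10.5 CPM in knockdown and rose by 4.94 (SE 0.236, adjusted p = 9.83e-08). SLC2A6 rose by 3.50 (SE 0.325), whereas SLC2A5, a fructose transporter, fell by 1.60 (SE 0.199). TXNIP, which removes glucose transporters from the cell surface and is itself induced by glucose, was at 249 to 309 CPM in NT, 561 to 584 CPM in sh#16 and 1320 to 1440 CPM in sh#87. It rose by 1.84 with both shRNAs (SE 0.389, adjusted p = 0.00159) and was higher with sh#87 than with sh#16 by 1.29 (SE 0.09, adjusted p = 6.12e-05).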

How the data were processed

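Groups of the 9 libraries came from the sample titles. One label field numbers the sh#87 construct otherwise. The kit selected polyA RNA and kept strand. Estimated counts by gene symbol were deposited by the authors as 1 table, without normalization. The submitters' processing notes name FastQC 1.3, STAR and GRCh38, whereas the table's header names salmon. Header names are shifted by 1 column and were read as naming the values in turn. How genes were chosen is not given in the sources used here. All values were whole, and 0 sample columns were left unused. Depth, 17096170 to 43502389 counts, limits counting error only.

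Counts were tested with edgeR 4.0.16 (R 4.3.3, TMM, filterByExpr, quasi-likelihood test, Benjamini-Hochberg adjustment over 16312 genes), in a fit of 2 groups for both shRNAs against NT and of 3 groups otherwise. Alternatives were DESeq2 1.42.0, limma-voom (limma 3.58.1), other normalizations, filters and thresholds, a replicate block, a length and GC correction (loess, span 0.5) and each library left out. Lengths came from 1 GRCh37 transcript per gene (14019 genes, 84.4%). Members and lists were chosen with earlier results of these data known.

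All 35 genes are named. Values in every library are given for genes changed at least 2-fold with each shRNA, for those that differ between shRNAs, and for GAPDH, LDHA and HIF1A. Others named are the 4 largest changes of each list among called genes whose higher group averaged 5 CPM or more, MECOM and MYC. Values in single libraries of other members, and BPGM, ENO3 and ADPGK, were added after their values were seen. The result for 1 gene that the naming rule picked is not reported here.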

Additional observations from a re-analysis of the deposited data

Results flagged for a closer look

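In the direct comparison of sh#87 with sh#16, 7 of the 33 genes (21.2%, against 17.7% of all genes tested) differed in edgeR's quasi-likelihood test with Benjamini-Hochberg adjustment over all genes tested. The log2 difference was -0.63 for SLC16A1 (adjusted p = 0.000167), -0.627 for LDHB (adjusted p = 0.000401), -0.605 for PFKP (adjusted p = 0.00162), -0.534 for LDHA (adjusted p = 0.00425), -0.445 for P4HA1 (adjusted p = 0.00213), -0.357 for HK2 (adjusted p = 0.00393) and 0.621 for VEGFA (adjusted p = 0.000637). The calls of HK2 and LDHA were lost with the replicate block and without any 1 knockdown library (adjusted p up to 0.0228 and 0.022), that of P4HA1 in 5 alternatives (up to 0.0132) and that of PFKP without sh#87 replicate 2 (0.0107). In each case the 3 libraries of one shRNA did not overlap those of the other. This also held for members not called in this comparison, among them TPI1, PGK1, PGAM1, ENO1, PKM and ADM. It therefore does not set the 7 apart, and its share over all genes is not given here. MECOM and MYC were lower with sh#87 as well, and their part in these differences was not tested. The 6 knockdown libraries were compared for outlying values in 33 genes, and no library was far enough from the others to be named.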

How the results depend on the processing

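With both shRNAs against NT, 14 of the 19 calls held under each of the 21 or 22 alternatives other than thresholds, those of HK2, LDHA, VEGFA, P4HA1, PFKP, HIF1A, EGLN1, EGLN3, BNIP3, SLC2A3, PFKFB3, PDK3, ENO2 and TIGAR. LDHB and PDK1 were each lost in 8 alternatives (highest adjusted p = 0.0693 and 0.0798), TPI1 in 7 (0.1), ALDOC in 1 (0.0151) and PKM in 1 (0.0169). Upper-quartile normalization moved the median of all genes from 0.05 to 0.16 and the correction for length and GC content moved it to -0.05, and changes are best read relative to these. A threshold of at least 1 on the absolute log2 fold change left 8 genes (3 higher, 5 lower) with both shRNAs, 6 (3 and 3) with sh#16, 9 (3 and 6) with sh#87, 0 (0 and 0) between the shRNAs and 24 list genes of 44. A threshold of 2 left 1 (1 higher, 0 lower) in each comparison with NT, 0 between the shRNAs and 9 list genes. For the threshold of 1 in single comparisons the share over all genes is not given here. Leaving out NT replicates 1 and 2 together, chosen after seeing the data, gave 25 list genes and assumes that the lone NT library varies like the other groups. With sh#16 the calls lost were those of PGK1 in 9 alternatives, TPI1 in 8, PGAM1 in 2 and PKM in 1, and with sh#87 those of PFKFB4 and PDK1 in 6 each, GPI in 3 and PKM in 1.

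Between the shRNAs, 7 genes were called (1 higher, 6 lower). The count was 11 (2 higher) at an adjusted p threshold of 0.05 and with DESeq2, 16 (4 higher, 12 lower) in limma-voom with group weights, 2 higher with the length and GC correction, and 18 (5 higher, 13 lower) both with only the libraries compared and without NT replicates 1 and 2. Over all genes tested the calls rose too, from 1353 higher and 1537 lower to 1930 and 2087 with DESeq2. They were 3600 and 3790 in limma-voom with group weights and 3681 and 3853 with only the libraries compared. The cause was not tested. HK2 and LDHA were each lost in 7 alternatives, P4HA1 in 5 and PFKP in 1. In counts instead of counts per length, the shares of ENO1 and PDK1 in their families differed between knockdown and NT by -2.58 and -25.3 points, against -2.03 and -7.35.

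With 1 library left out in turn, genes called ranged from 16 to 24 (7 to 14 higher, 9 to 11 lower) with both shRNAs, from 18 to 29 (8 to 18 higher, 10 to 11 lower) with sh#16, from 18 to 29 (8 to 16 higher, 10 to 13 lower) with sh#87 and from 3 to 12 (1 to 2 higher, 2 to 10 lower) between them. The highest counts came without NT replicate 3. Over all genes tested (16182 to 16554), calls ranged from 3779 to 4793 higher and 4098 to 4932 lower with both shRNAs. With sh#16 they ranged from 4059 to 5598 higher and 4141 to 5626 lower, and with sh#87 from 4952 to 6168 and 4836 to 5996. Between the shRNAs they ranged from 475 to 2556 higher and 614 to 2770 lower. Between the shRNAs the count was 11 without NT replicate 1, 3 without sh#87 replicate 2, and 4 without sh#16 replicate 1 or 3 or sh#87 replicate 1 or 3. List genes called ranged from 37 to 48 and the MECOM value from -2.12 to -1.92.

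Same-numbered libraries deviated with correlations from -0.137 to 0.0826, which shows no pairing by number. With 3 libraries a group and a wide spread in NT, this cannot exclude one. The replicate block gave 18 calls (8 higher, 10 lower) with both shRNAs, where LDHB was lost (adjusted p = 0.0131). It gave 21 with each shRNA, 5 between them (HK2 and LDHA lost) and 40 list genes. Over all 16312 genes tested the block gave 4349 higher and 4310 lower with both shRNAs, against 4904 and 4848 without it. With sh#16 these were 4536 and 4569, and with sh#87 5314 and 5125. Between the shRNAs they were 734 and 854, against 1353 and 1537 without the block. These counts are not a result about these genes.

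A direction turned in 47 of 2778 values of single genes, all of them not called before. Leaving aside the fit with 1 NT library, some turned values passed edgeR's test, all with the length and GC correction. These were PFKL with sh#16 (adjusted p = 0.00322) and ALDOA with sh#87 (0.00519). BNIP3L passed with both shRNAs (0.00459), with sh#16 (0.00122) and with sh#87 (0.00497). With 1 library left out, SLC2A1 ranged from -0.43 to 0.061 with both shRNAs and from -0.26 to 0.24 with sh#16, ENO1 from -0.0060 to 0.27 with both shRNAs, BNIP3L from -0.20 to 0.096 with sh#16 and SLC16A3 from -0.010 to 0.21 between the shRNAs. Without NT replicate 3 it was 0.039 for PFKM with sh#16 and 0.057 for ENO1 with sh#87. With the length and GC correction it was -0.18 for PFKL, -0.21 for ALDOA, -0.065 for ENO1, -0.049 for SLC16A3, 0.26 for BNIP3L with both shRNAs, -0.25 for PFKL, -0.19 for ALDOA, -0.052 for SLC16A3, 0.29 for BNIP3L with sh#16, -0.13 for PFKL, -0.22 for ALDOA, 0.26 for SLC16A1, -0.055 for SLC16A3, 0.23 for BNIP3L with sh#87 and 0.039 for SLC2A3, 0.0027 for GAPDH, -0.0028 for SLC16A3, 0.022 for EGLN3 between the shRNAs. With NT replicates 1 and 2 left out together it was -0.051 for PFKM, -0.12 for GAPDH, -0.0088 for PGK1, -0.16 for ENO1, 0.14 for BNIP3L with both shRNAs, -0.020 for PFKL, -0.11 for GAPDH, 0.25 for BNIP3L with sh#16 and -0.13 for GAPDH, -0.23 for PGK1, -0.17 for PGAM1, 0.035 for BNIP3L with sh#87. Without NT replicate 1 it was -0.052 for PGK1 with sh#87. With upper-quartile normalization it was 0.077 for SLC2A1, 0.033 for PFKM, 0.057 for BNIP3L with sh#16 and 0.027 for ENO1 with sh#87. In limma-voom it was 0.011 for SLC2A1 with sh#16. In limma-voom with group weights it was 0.0057 for SLC2A1 with sh#16. With the replicate block it was 0.014 for SLC2A1 with sh#16. Without sh#16 replicate 1 it was 0.0065 for PFKM with sh#16. Without NT replicate 2 it was -0.00033 for PGK1 with sh#87.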
